A study of Mus musculus with 4 samples.

Results

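The miR-17-92 and miR-106b-25 clusters are related groups of microRNAs (miRNAs), and the 9 mature miRNAs examined here are their dominant arms. Each cluster is named for its first and last hairpins. They were chosen by name as mmu-miR-17-5p, mmu-miR-18a-5p, mmu-miR-19a-3p, mmu-miR-19b-3p, mmu-miR-20a-5p and mmu-miR-92a-3p (6 of miR-17-92) and mmu-miR-106b-5p, mmu-miR-93-5p and mmu-miR-25-3p (3 of miR-106b-25), out of 1881 mouse miRNAs on the array. The study asked which miRNAs mouse 3T3-L1 cells, a fibroblast line that turns into adipocytes in culture, release in exosomes as they differentiate. Medium was collected on D0, D4, D12 and D16, where the number counts days after the cells left growth medium for differentiation medium-1, which holds 1-methyl-3-isobutylxanthine, dexamethasone and insulin. D0 medium came from cells grown without these agents, while D4, D12 and D16 cells had passed through medium-1 and then stayed in differentiation medium-2, with insulin as the only inducer. All media held exosome-depleted fetal bovine serum, penicillin and streptomycin. The exosome fraction was pelleted by ultracentrifugation, and its RNA was hybridised to 1 single-colour array per day. Each array held RNA pooled from independent culture experiments, so no replicate array exists and no difference between days could be tested. Between D0 and the later days, day and culture medium cannot be told apart.

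A primary transcript of each cluster is cut into several hairpins, and each hairpin gives a mature miRNA whose seed, bases 2 to 8 from the 5′ end, chooses the messages it silences. miR-17-92 is driven by MYC and E2F factors, promotes cell-cycle entry and survival, and is known to favour the clonal expansion of preadipocytes early in adipogenesis. miR-106b-25 lies in an intron of Mcm7, a replication gene, and shares seeds with miR-17-92.

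In the GRCm38.p6 assembly, the 6 hairpins of miR-17-92 lie at chr14:115043684-115044496 on the plus strand. The 3 hairpins of miR-106b-25 lie at chr5:138165332-138165807 on the minus strand, with all 6 of their mature arms inside the span of Mcm7. The sequences of all 9 members, from RefSeq, are shown with the seed in capitals because the members fall into 4 seed families that cross the clusters, and because members of one family can differ by few bases. The first family, seed AAAGUGC, holds 4 members.

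mmu-miR-17-5p: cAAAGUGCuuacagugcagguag
mmu-miR-20a-5p: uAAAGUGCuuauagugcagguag
mmu-miR-106b-5p: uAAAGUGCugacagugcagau
mmu-miR-93-5p: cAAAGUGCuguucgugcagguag

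Counted from 1 at the 5′ end, with the base of mmu-miR-17-5p first, mmu-miR-20a-5p carries C1U and C12U, mmu-miR-106b-5p carries C1U, U10G and G20A, and mmu-miR-93-5p carries U10G, A11U, C12U and A13C. The miR-18 family, seed AAGGUGC, and the miR-19 family, seed GUGCAAA, are found in miR-17-92 alone among these clusters.

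mmu-miR-18a-5p: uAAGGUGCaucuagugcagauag
mmu-miR-19a-3p: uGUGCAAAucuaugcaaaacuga
mmu-miR-19b-3p: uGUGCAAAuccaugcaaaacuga

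The miR-19 pair differs by U11C, with the base of mmu-miR-19a-3p first. The family with seed AUUGCAC has 1 member in each cluster.

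mmu-miR-92a-3p: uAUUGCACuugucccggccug
mmu-miR-25-3p: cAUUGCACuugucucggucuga

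From mmu-miR-92a-3p to mmu-miR-25-3p the shared positions hold U1C, C14U and C18U. mmu-miR-19b-3p and mmu-miR-92a-3p are also made from a further locus each in the X-linked miR-106a-363 cluster, so their signals cannot be assigned to miR-17-92 alone. Cross-hybridisation between such close sequences was not tested.

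Values are total gene signals, the linear intensity the scanner software gave each miRNA by adding its detected probes, with no scaling between arrays. Each miRNA had 30 spots on each array. A probe was called detected when its signal exceeded 3 times its own error, and the value after ± is the software's technical error within 1 array, not a spread between cultures. Of the 1881 miRNAs, 329 were detected on D0, 426 on D4, 406 on D12 and 380 on D16, and the later arrays were brighter as a whole. The median ratio to D0 over all miRNAs detected on both days was 2.47 on D4, 1.91 on D12 and 1.32 on D16. The 4 spike-in RNAs were also 1.82, 1.72 and 1.27 times as bright as on D0. The D0 array was uneven, with a spread between spots of 21.1% against 7.19 to 8.07% on the other arrays. Every ratio to D0 below rests on that 1 array.

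The signal of the clusters was low on D0 and highest on D12. On D0, 5 of the 9 members were detected, against 7 on D4, 7 on D12 and 8 on D16. The summed signal of the detected members was 23.1 on D0, 184 on D4, 251 on D12 and 171 on D16. As a share of the detected signal of the same array, which a common scaling factor does not move, the members made up 0.182% on D0, 0.469% on D4, 0.811% on D12 and 0.782% on D16. With the 4 members not detected on D0 set at their limits, the D0 share was 0.337%, still below the D4 share.

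**Figure D1:**
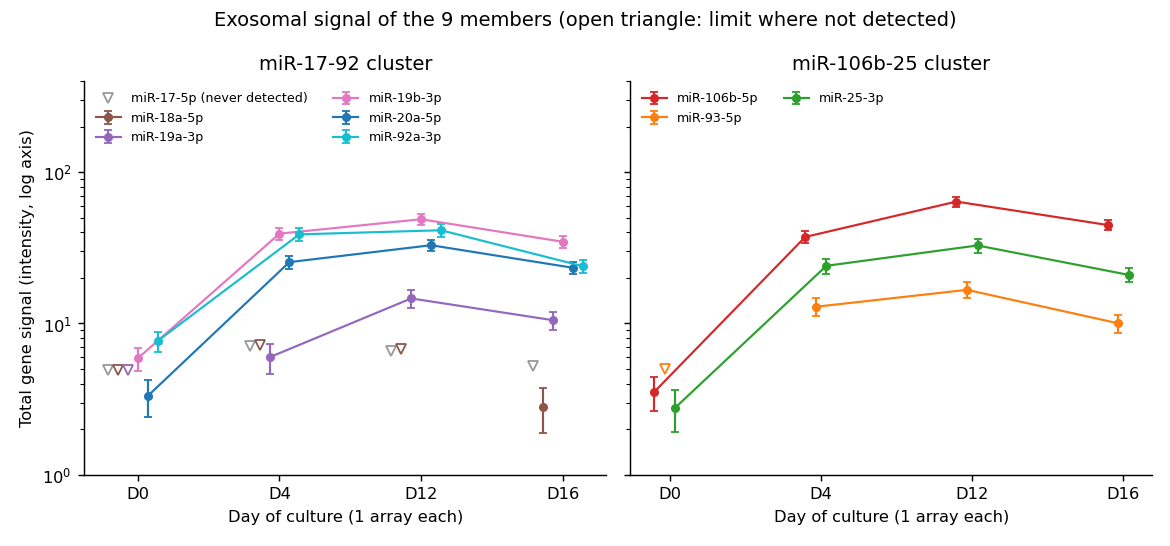
Total gene signal (intensity, log axis) of each member on the arrays of D0, D4, D12 and D16, with miR-17-92 on the left and miR-106b-25 on the right; bars are the technical error within an array, and open triangles mark 3 times the summed probe error where a member was not detected (a limit over both probes, which can exceed a signal seen through 1 probe). Every member detected on all 4 arrays was lowest on D0 and highest on D12 in these unscaled signals, and mmu-miR-17-5p was not detected on any array.

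mmu-miR-106b-5p, which shares its seed with miR-17 and is known to repress the cell-cycle inhibitor p21, had a signal of 3.52 ± 0.894 on D0, 37.3 ± 3.27 on D4, 63.9 ± 5.02 on D12 and 44.7 ± 3.59 on D16. It was 10.6 times its D0 signal on D4, 18.2 times on D12 and 12.7 times on D16, with a technical error of 0.38 on the log2 scale on D12. Both of its probes were detected later but 1 on D0, and that 1 probe taken alone gave ratios of 7.18 on D4, 12.1 on D12 and 8.61 on D16. Its D12 ratio of summed probes was the largest among the members measured on both days, and 97.6% of the 297 miRNAs detected on both D0 and D12 had a lower one.

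mmu-miR-20a-5p, of the same family and known to repress E2F1, gave 3.31 ± 0.889 on D0, 25.4 ± 2.53 on D4, 32.9 ± 2.91 on D12 and 23.3 ± 2.14 on D16. Its D12 ratio to D0 was 9.92, with an error of 0.41 on the log2 scale, and 6.65 over the 1 probe detected on both days. The log2 ratio of mmu-miR-106b-5p exceeded that of mmu-miR-20a-5p by 0.87 ± 0.56, with a technical 95% interval from -0.22 to 1.97, so the arrays did not separate the seed mates.

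mmu-miR-93-5p, the middle hairpin of miR-106b-25, was not detected on D0 and gave 12.9 ± 1.75 on D4, 16.7 ± 2.00 on D12 and 10.0 ± 1.33 on D16. Against its D0 limit of 3 errors summed over its probes, it was at least 2.59-fold higher on D4, 3.34-fold on D12 and 2.01-fold on D16. These bounds rest on the unscaled signals: 75th percentile scaling gave 0.607, 1.02 and 0.888, so none stood above 1 on D4 and D16, and on D4 the bound was also under 1 with 90th percentile (0.874) and quantile (0.845) scaling. One of its 2 probes carried all of the detected signal, and the other stayed under the limit on every array. Against the D0 limit of the detected probe alone, the unscaled bounds were 5.10 on D4, 6.60 on D12 and 3.97 on D16. These 1-probe bounds were not recalculated with scaling.

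mmu-miR-17-5p, the founding member, was not detected on any array. Its 2 probes ranged from -0.536 to 0.243 over the 4 days, with errors of 0.818 to 1.19, so both lay within 1 error of zero. Its seed mates mmu-miR-20a-5p and mmu-miR-106b-5p were detected on all 4 arrays. mmu-miR-20a-5p comes from the same primary transcript as mmu-miR-17-5p, and the difference in detection was not examined with another assay.

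mmu-miR-18a-5p was called detected on D16 alone, with a signal of 2.80 ± 0.921. Its brighter probe read 0.792 ± 0.827 on D0, 2.68 ± 1.22 on D4, 3.22 ± 1.15 on D12 and 2.80 ± 0.921 on D16. The D12 reading was higher than the D16 one but its limit was higher as well, at 3.44 against 2.76, so the call on D16 does not show a larger signal on that day.

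**Figure D2:**
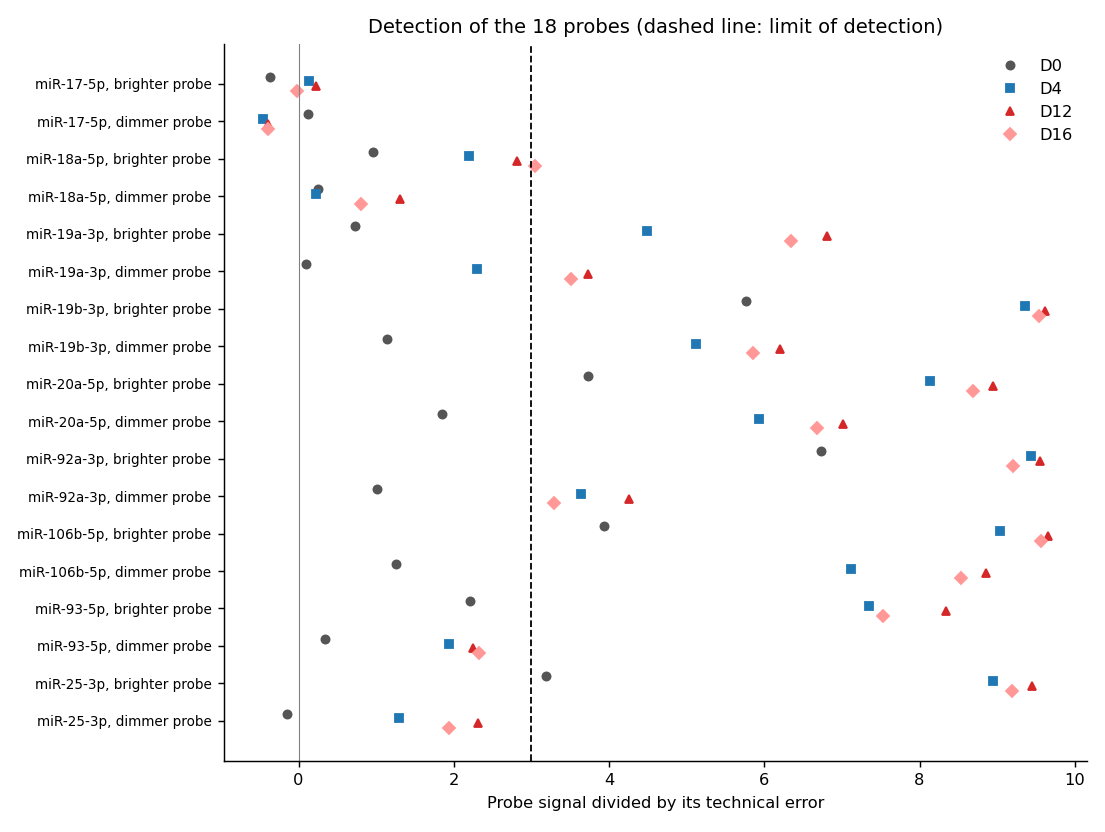
Signal of each of the 18 probes of the 9 members divided by its technical error (horizontal axis) on the 4 arrays, with the detection limit of 3 as a dashed line. Both probes of mmu-miR-17-5p sit near 0 on all 4 days, the brighter probe of mmu-miR-18a-5p crosses the limit on D16 only, and the D0 points of the other members lie to the left of their later points.

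The miR-19 family is the part of miR-17-92 best known for promoting cell survival. mmu-miR-19b-3p had a signal of 5.88 ± 1.02 on D0, 39.2 ± 3.70 on D4, 48.8 ± 4.40 on D12 and 34.7 ± 3.16 on D16. Its ratio to D0 was 6.67 on D4, 8.31 on D12 and 5.90 on D16. The D12 ratio had an error of 0.28 on the log2 scale and was 6.83 over the 1 probe detected on both days, and 92.6% of miRNAs had a lower ratio.

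mmu-miR-19a-3p was not detected on D0 and gave 5.98 ± 1.33 on D4, 14.6 ± 1.91 on D12 and 10.5 ± 1.47 on D16. It was at least 1.22-fold higher than its D0 limit on D4, 2.98-fold on D12 and 2.14-fold on D16. These bounds too rest on the unscaled signals, since 75th percentile scaling brought them to 0.285, 0.905 and 0.944, all under 1, and the D4 bound was also under 1 with 90th percentile, quantile and spike-in scaling and without the factor of spot size, at 0.344 to 0.936. Its ratio of D12 to D4 was 2.45, but 1 probe was detected on D4 and 2 on D12, and over the shared probe the ratio was 1.71. Against the D0 limit of that shared probe alone, the unscaled D4 bound was 2.43.

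In the family of miR-92a and miR-25, known to repress the integrin subunit ITGA5 and the cell-cycle inhibitor p57, mmu-miR-92a-3p had 7.65 ± 1.14 on D0, 38.8 ± 3.84 on D4, 41.3 ± 3.97 on D12 and 23.9 ± 2.45 on D16. Its D12 ratio of 5.40, with an error of 0.26 on the log2 scale, was the smallest among the members measured on both days, yet 87.5% of miRNAs had a lower one. Over the 1 probe of mmu-miR-92a-3p detected on both days, the D12 ratio was 4.72. mmu-miR-25-3p had 2.77 ± 0.868 on D0, 24.0 ± 2.69 on D4, 32.8 ± 3.47 on D12 and 20.9 ± 2.28 on D16, which made its D12 ratio 11.8 with an error of 0.48 on the log2 scale.

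mmu-miR-25-3p exceeded mmu-miR-92a-3p in the log2 ratio of D12 to D0 by 1.13 ± 0.54, with a technical 95% interval from 0.07 to 2.19. The difference was 1.32 over the probes detected on both days and 1.27 on D16. On D4 it was 0.77, with an interval from -0.29 to 1.84 that includes no difference. These 4 pairs of like sequences (including mmu-miR-106b-5p against mmu-miR-93-5p and mmu-miR-19a-3p against mmu-miR-19b-3p) were compared with technical errors alone, and no p-value was computed.

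Above 2-fold over D0 were 6 of the 9 members on D4, 7 on D12 and 7 on D16, out of 7, 7 and 8 members detected on these days, and none was below 0.5-fold. Of all miRNAs detected on the later array, 55.9% were above 2-fold on D4, 44.8% on D12 and 30.8% on D16. The median ratio of the 5 members detected on both days was 7.67 on D4, 9.92 on D12 and 7.04 on D16, beside 2.47, 1.91 and 1.32 for all miRNAs. Except for mmu-miR-25-3p, these members were detected through 1 probe on D0 and 2 later, which raises their ratios. Over probes detected on both days, the median log2 ratio of the 5 members was 2.45, 2.77 and 2.27, where the summed probes gave 2.94, 3.31 and 2.82. All 5 stayed above their D0 signals and above the median of all miRNAs on D4, D12 and D16 under every scaling tried, though the 75th percentile scaling brought the lowest D12 ratio, that of mmu-miR-92a-3p, to 1.64, and the number of members above 2-fold on D12 to 4. With normexp background correction, which adds an offset of 50 to every spot, that number was 2. Of all miRNAs detected on D12, 9.36% were above 2-fold with 75th percentile scaling and 12.3% with normexp.

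**Figure D3:**
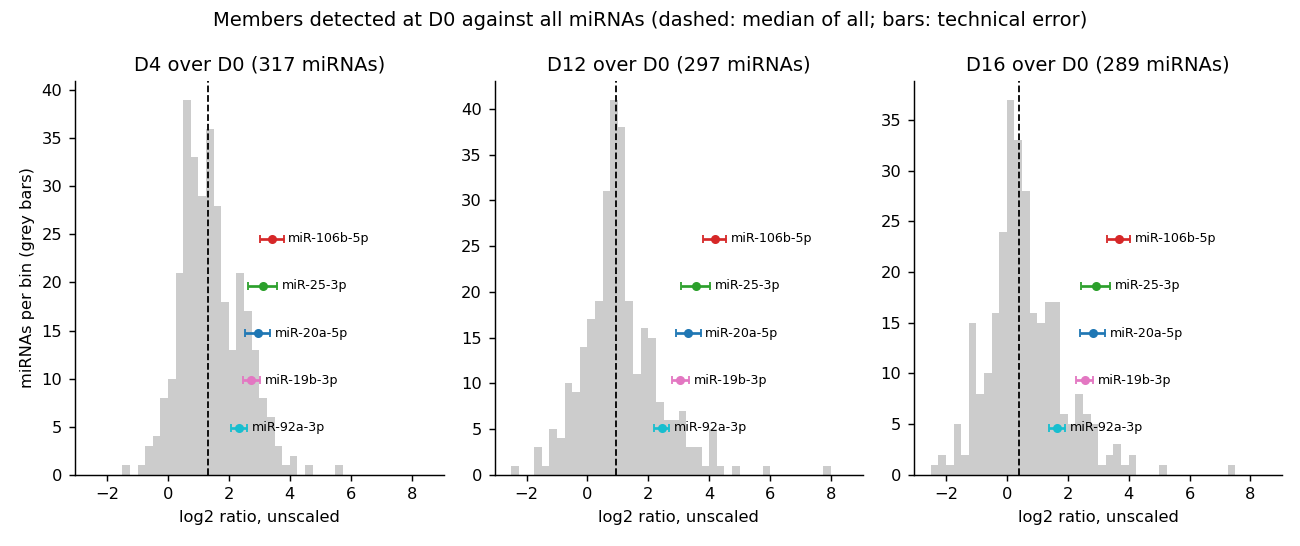
Grey bars count miRNAs by their unscaled log2 ratio to D0 on D4 (317 miRNAs), D12 (297) and D16 (289), and the dashed line is their median; coloured points are the 5 members detected on D0, with technical error bars and a height chosen only to separate them. The 5 points lie to the right of the median in all 3 panels, with mmu-miR-92a-3p the nearest to it and mmu-miR-106b-5p the farthest.

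The spots of D0 and D12 were compared for the brighter probe of each member. For all 7 members with a detected brighter probe on D12, every D12 spot of that probe was above every D0 spot. The same held for 45.7% of the 777 probes detected on D12. Those 777 probes were not limited to the brighter probe of each miRNA, so this share is not a like-for-like background for the members. Spots overlapped for mmu-miR-17-5p and mmu-miR-18a-5p, whose brighter probes were not detected on D12. Members were thus counted only if detected on D12, the day with the higher signals, so the count of 7 is no support for a rise. The spots of mmu-miR-106b-5p ran from 10.7 to 24.8 on D0 and from 139 to 178 on D12. Those of mmu-miR-93-5p ran from -1.19 to 14.0 on D0 and from 53.5 to 70.8 on D12. Spots of 1 array share a single hybridisation, so their separation says nothing of the spread between cultures.

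**Figure D4:**
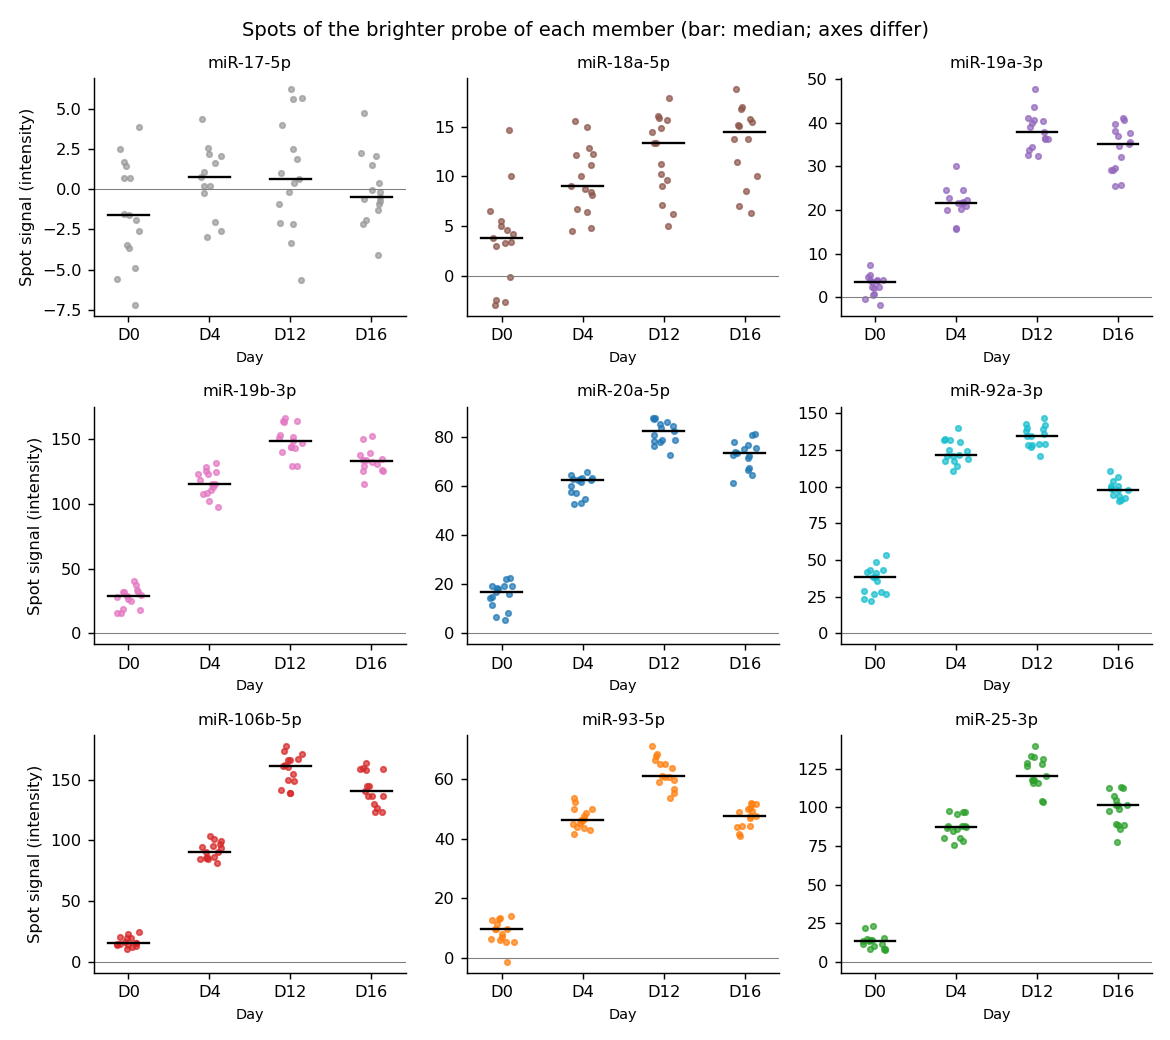
Signal (intensity, linear axes that differ between panels) of each spot of the brighter probe of each member on the 4 arrays, with the median as a bar. The D12 spots of 7 members lie wholly above the D0 spots, those of mmu-miR-18a-5p overlap, and those of mmu-miR-17-5p scatter around 0 on all 4 days.

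In unscaled signals, the 5 members detected on D0 changed less after D4 than from D0 to D4. The ratio of D12 to D4 was 1.25 for mmu-miR-19b-3p, 1.29 for mmu-miR-20a-5p, 1.06 for mmu-miR-92a-3p, 1.71 for mmu-miR-106b-5p, 1.29 for mmu-miR-93-5p and 1.36 for mmu-miR-25-3p, while the median of all 374 miRNAs detected on both days was 0.865. Of the 7 detected members, only mmu-miR-106b-5p and mmu-miR-19a-3p were higher by more than 2 technical errors, beside 9.89% of the 374 miRNAs. All 7 ratios were above 1 with and without scaling between arrays. After 75th percentile scaling, the steps from D0 to D4 and from D4 to D12 were of like size. They were 1.80 and 1.67 for mmu-miR-20a-5p, 2.49 and 2.22 for mmu-miR-106b-5p, and 2.04 and 1.77 for mmu-miR-25-3p. The later step was the larger for mmu-miR-19b-3p, at 1.57 and 1.61, and for mmu-miR-92a-3p, at 1.19 and 1.38.

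From D12 to D16 the 7 members ran from 0.579 (mmu-miR-92a-3p) to 0.718 (mmu-miR-19a-3p), and the median of the 371 miRNAs detected on both days was 0.703. Unscaled, 6 of the 7 were lower by more than 2 technical errors, the exception being mmu-miR-19a-3p, beside 55.3% of the 371 miRNAs, but after the 75th percentile scaling mmu-miR-19a-3p, mmu-miR-19b-3p, mmu-miR-20a-5p and mmu-miR-106b-5p were at 1.04, 1.03, 1.03 and 1.02, so their direction depended on the scaling. mmu-miR-92a-3p, mmu-miR-93-5p and mmu-miR-25-3p stayed below 1 under every setting tried, with highest ratios of 0.860, 0.886 and 0.929.

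**Figure D5:**
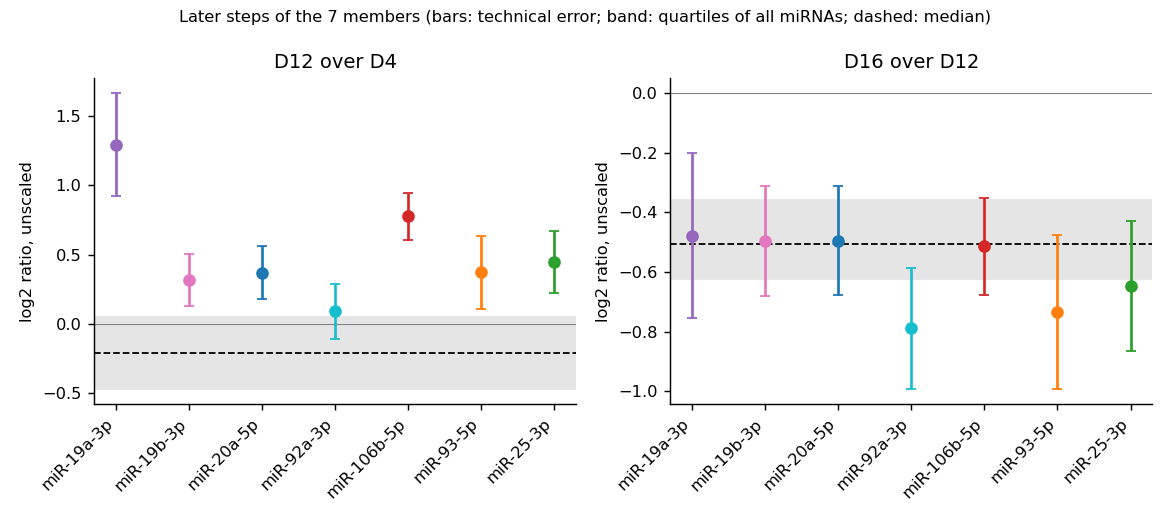
Unscaled log2 ratios of D12 over D4 (left) and D16 over D12 (right) of the 7 members detected on these days, with technical error bars; the band spans the quartiles of all miRNAs and the dashed line is their median. For D12 over D4 all 7 points lie above the band, and for D16 over D12 mmu-miR-92a-3p, mmu-miR-93-5p and mmu-miR-25-3p lie below the band while the other 4 lie near the median and cross to above 0 once the arrays are scaled to their 75th percentiles.

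The clusters were set side by side through their median log2 ratios to D0, since a difference between ratios on the same arrays is not moved by a scaling factor. On D12 the median ratio was 8.31 over the 3 miR-17-92 members and 14.7 over the 2 miR-106b-25 members detected on both days, a log2 difference of -0.82 ± 0.42 with a technical 95% interval from -1.63 to -0.0030. The difference was -0.52 ± 0.42 on D4 and -0.73 ± 0.42 on D16, with intervals that include 0. The miR-17-92 value of 8.31 on D12 was the ratio of mmu-miR-19b-3p. Like mmu-miR-92a-3p, mmu-miR-19b-3p is also made from the X-linked cluster. Of the 3 members only mmu-miR-20a-5p comes from miR-17-92 alone, so the difference cannot be assigned to the 2 clusters alone. miR-17-92 was the lower in all 30 recalculations over these 3 comparisons, at -1.02 to -0.20. Percentile scaling, spike-in scaling and leaving out the factor of spot size could not move the difference and repeated the unscaled value. On D12, the settings able to move it gave -0.65 with quantile scaling and -0.54 with normexp. Spots of the left and right sides gave -0.60 and -0.79. Both probes summed regardless of detection gave -1.02, and probes detected on both days gave -0.85. In the steps after D4 the clusters lay within their technical errors of each other, at -0.10 ± 0.26 from D4 to D12 and 0.15 ± 0.25 from D12 to D16.

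The opposite arms of the same hairpins are usually degraded when the mature strand is loaded. Of all 1881 miRNAs, 17.5% were detected on D0, 22.6% on D4, 21.6% on D12 and 20.2% on D16. Most miRNAs on each array were thus under the limit, and a low count does not by itself set these arms apart. Of the 9 such arms, mmu-miR-18a-3p alone was detected, with signals of 2.86 on D0, 2.08 on D4, 3.81 on D12 and 1.32 on D16. Its unscaled ratio of D12 to D0 was 1.33, with an error of 0.44 on the log2 scale. The list also held mmu-miR-19b-2-5p and mmu-miR-92a-2-5p, which come from the miR-106a-363 hairpins and were not detected. The hairpin partner mmu-miR-18a-5p was detected on D16 only.

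The paralogous miR-106a-363 cluster had 7 of its 8 listed arms on the array, without mmu-miR-106a-5p. Of these, 0, 2, 2 and 2 were detected on D0, D4, D12 and D16, beside 17.5, 22.6, 21.6 and 20.2% of all miRNAs. mmu-miR-20b-5p, which differs from mmu-miR-20a-5p by U1C and U10C, was not detected on D0 and had signals of 6.71 ± 1.37 on D4, 13.9 ± 1.88 on D12 and 6.30 ± 1.08 on D16. It was at least 2.78-fold higher on D12 than its D0 limit. mmu-miR-18b-3p, not detected on D0 either, had its highest unscaled signal on D4, at 7.47 ± 1.41, followed by 5.42 ± 1.23 and 3.42 ± 0.942. The other 5 arms, mmu-miR-18b-5p and mmu-miR-363-3p among them, were under the limit on all 4 arrays.

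Fixed lists of miRNAs typical of other cells, and of mesenchymal cells and adipocytes, had higher summed unscaled signals on D4, D12 and D16 than on D0. The median ratio to D0 over all miRNAs detected on both days was 2.47, 1.91 and 1.32. Of all miRNAs, 17.5, 22.6, 21.6 and 20.2% were detected on D0, D4, D12 and D16. Of the red blood cell list, 5 miRNAs were on the array, and 1, 3, 4 and 3 of them were detected on D0, D4, D12 and D16, with summed signals of 9.40, 468, 2528 and 1649. Its main member mmu-miR-451a was at 9.40, 443, 2400 and 1559, and mmu-miR-486a-3p was under the limit on every array. The ratios of mmu-miR-451a to D0 were 47.1 on D4, 255 on D12 and 166 on D16. Those of the members detected on both days were far smaller, at 5.07 to 10.6, 5.40 to 18.2 and 3.13 to 12.7. Of the 5 leukocyte, endothelial and liver miRNAs, 0, 2, 4 and 4 were detected, with summed signals of 0, 30.2, 137 and 117, and mmu-miR-150-5p was under the limit on every array. Blood cells and their precursors also hold both clusters, and the part of such RNA in the members' values was not tested. Of 8 miRNAs typical of mesenchymal cells and adipocytes, 5, 7, 7 and 7 were detected, with summed signals of 130, 1115, 1090 and 710, and mmu-miR-145a-5p was the one not detected.

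Likeness was taken over the 3 log2 ratios to D0, among the 283 miRNAs detected on all 4 arrays with the members left out. The 5 miRNAs nearest to the mean of miR-17-92 were mmu-miR-22-3p, mmu-let-7d-5p, mmu-let-7i-5p, mmu-let-7f-5p and mmu-miR-5624-5p. mmu-miR-22-3p, the nearest at a distance of 0.22 log2 units, was 6.56, 6.61 and 5.21 times its D0 signal on D4, D12 and D16. The nearest to miR-106b-25 were mmu-miR-193b-3p, mmu-miR-199b-5p, mmu-miR-107-3p, mmu-let-7c-5p and mmu-let-7a-5p. mmu-miR-193b-3p, a miRNA known from brown fat, stood at 10.1, 16.6 and 10.1 times its D0 signal on these days. All of these distances share the same D0 array and describe 4 arrays.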

How the data were processed

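RNA of exosome fractions of 3T3-L1 medium was labelled with Cy3 and hybridised to Agilent mouse miRNA arrays, 1 per day, each a pool of culture experiments whose number the labels and the methods give differently. The authors deposited scanner output of Agilent Feature Extraction 11.0.1.1, per the file headers, in which each spot has an intensity and each miRNA a summed intensity with its error and detection call. Intensities were background-subtracted by that software, and the deposited columns hold no scaling between arrays. These sums were used unscaled. The study's methods divide by D0 and name no scaling, but how the values behind the study's own ratios were made is not given in the sources used here, and the ratios here need not follow from the same steps. A miRNA not detected on the earlier day was set at 3 times its summed probe error. The detection rule and the sums were recomputed for all 1881 miRNAs and matched the deposited calls. Sums held a software factor of spot size 1.30 and 1.27 times larger on D4 and D12 than on D0. Ratios used Python 3.11.15, numpy 2.4.6 and pandas 2.3.3, and normexp used limma 3.58.1 in R 4.3.3.

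Alternatives scaled the arrays (75th or 90th percentile, quantile, spike-in RNAs), left out the spot factor, used other probes, spots of 1 side of the array, normexp with offset 50, and other thresholds. The members, the opposite-arm, paralog and cell-type lists and the comparisons were chosen with earlier results of these data known. All 9 members are named. Listed arms and paralogs detected on at least 1 array are given with values, and the 5 nearest miRNAs follow from Euclidean distance. The ratio steps were run on simulated data whose noise was drawn from the same errors as the intervals. Those data held no detection limit and no missing probe, so they could not test the bounds or the effect of probes lost on D0. Arrays are few, which limits precision: with 1 per day, errors are technical only. RefSeq sequences are of GRCm38.p6. The array headers name an older mouse build, whose coordinates were not used.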

Additional observations from a re-analysis of the deposited data

How the results depend on the processing

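The number of members above 2-fold on D12 fell from 7 to 4 with 75th percentile scaling and to 2 with normexp, and the share of all miRNAs above 2-fold fell from 44.8% to 9.36% and 12.3%. The members' median log2 ratio of D12 to D0, 3.31 unscaled, was 1.59 with 75th percentile, 2.10 with 90th percentile and 1.81 with quantile scaling, and 0.93 with normexp, whose offset is added to every signal. These scalings also moved the median log2 ratio of all miRNAs, 0.94 unscaled, to -0.78, -0.28 and -0.31, and the spike-in RNAs moved it to 0.15. On D0, 2 members instead of 5 were detected under a rule asking that 50% or more of a probe's spots stand well above background. The share of all miRNAs under that rule was not counted. The lower bounds on D12 over D0 became 0.905 for mmu-miR-19a-3p and 1.02 for mmu-miR-93-5p with 75th percentile scaling. With spike-in scaling the members' median log2 ratio was 2.53. On D12, 5 members were above 2-fold with 90th percentile, quantile or spike-in scaling, beside 14.0%, 12.6% and 22.4% of all miRNAs. A count was taken as moved when it changed more than 1.5-fold, and a median or difference when it left its technical 95% interval. By that rule the spike-in median of 2.53, against 3.31 unscaled, did not move. Of the 42 recalculated values of the main results, 7 moved. Counts among them have no direction to change, and 1 factor per array cannot move the difference between the clusters. The members' median log2 ratio of D12 to D0 stayed above 0 in every setting, at 0.93 or more. On D4 and D16, 14 of 68 values moved: the members' median log2 ratio to D0 went as low as 0.76 on D4 and 0.84 on D16, and the number above 2-fold as low as 0 and 2. These lowest numbers came from normexp, with which 13.8% of all miRNAs were above 2-fold on D4 and 8.68% on D16. Ratios from the left side of the D0 array were higher, with mmu-miR-106b-5p at 22.3 and mmu-miR-25-3p at 16.5 on D12, where those from all spots were 18.2 and 11.8. No paired analysis was possible because each day has 1 array, and no array could be left out. Several members lie close to the detection limit on D0, so their ratios to D0 carry the largest technical errors.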

Other observations

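Among the 7 members detected on D12 and D16, the order of the ratio of D16 to D12 ran almost opposite to the base composition of the mature sequence. mmu-miR-19a-3p, with 34.8% G and C, had the ratio 0.718, and mmu-miR-92a-3p, with 57.1%, had 0.579. Spearman's rho was -0.99 over the 7 members and 0.088 over the 298 miRNAs with a RefSeq sequence that were detected on both days. From D4 to D12 it was -0.45 over the 7 members and -0.30 over 302 miRNAs. The members share 2 arrays, some share most of their sequence, their ratios overlap within technical errors, and the pattern was looked for after the values were seen, so it is given as a description.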
